A study of Saccharomyces cerevisiae with 17 samples.

Results

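RNA of budding yeast lacking SET2 was set against RNA of wild type, using 4 of the 17 libraries of the series: 2 biological replicates of the set2 deletion and 2 of wild type. The series asks how methylation of lysine 36 on histone H3 (H3K36) and the chromodomain protein Eaf3 bear on spliceosome assembly during transcription, and its other 4 RNA libraries come from the histone mutant H3K36A and from an eaf3 deletion. Both groups are haploid Saccharomyces cerevisiae of the BY4741 background, with the genotype MATa his3- leu2- met15- ura3-, and differ by label in the deletion of set2 alone. The labels do not say how the deletion was made or whether the strain is a single clone. Cells were taken at mid-log phase from YPD, a rich glucose medium, at 30 °C, and total RNA, depleted of rRNA and treated with DNase, went into stranded libraries. The authors deposited 1 mean value per gene and genotype in RPKM, reads scaled to gene length and library size, for 5326 genes.

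Set2 travels with elongating RNA polymerase II and methylates H3K36 over the bodies of transcribed genes. The mark is bound by the Rpd3S histone deacetylase through its Eaf3 subunit, which keeps transcribed chromatin deacetylated behind the polymerase and represses internal promoters. Loss of Set2 is known for antisense and internal transcription in growing cells, with milder effects on the RNA levels of most genes.

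Of the 5326 genes, 3657 had a mean of at least 10 RPKM over the 4 genotypes and were compared, while 1669 were not. RIM15 was the gene nearest above the minimum, with a mean of 10.002, and MDM1 the nearest below it, with 9.999. A gene was called when log2((set2 deletion + 1)/(wild type + 1)) was at least 1 or at most -1. The table holds means only, so there is no spread between replicates, no difference was tested, and read depth is unknown. SET2 has no row in the table as used here, so the genotype was not checked on the deleted gene. Of the auxotrophic markers HIS3 had a row, at 72.1 RPKM in the set2 deletion and 61.2 RPKM in wild type. Genes specific to MATa cells had values in both genotypes, such as STE2, the alpha-factor receptor, with 504 RPKM in the set2 deletion and 418 RPKM in wild type.

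In the set2 deletion few genes differed strongly from wild type and many differed slightly. At least 2-fold higher values were seen for 46 genes (1.26% of those compared) and at least 2-fold lower values for 235 (6.43%), and the other 3376 (92.3%) lay between the limits. The whole distribution was displaced: 2650 genes (72.5%) had less RPKM in the set2 deletion than in wild type and 1007 had more, with a median log2 ratio of -0.23 and quartiles of -0.53 and 0.03. RPKM values of a library share a total, and small RNA genes took 27.1% of the RPKM sum in the set2 deletion against 22.7% in wild type. These were small nuclear and nucleolar RNAs, with any rows of the RNA genes SCR1, RPR1, NME1 and TLC1. With those genes taken out and the rest rescaled, the median was -0.15, and no other part of the displacement was tested. Ratios of genes and lists are therefore given relative to the median gene ("relative log2"), while calls are on the authors' scale unless stated. Relative to the median gene, 67 genes (1.83%) were at least 2-fold higher and 106 (2.9%) lower, and after quantile normalization the split was 79 higher and 66 lower.

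**Figure D1:**
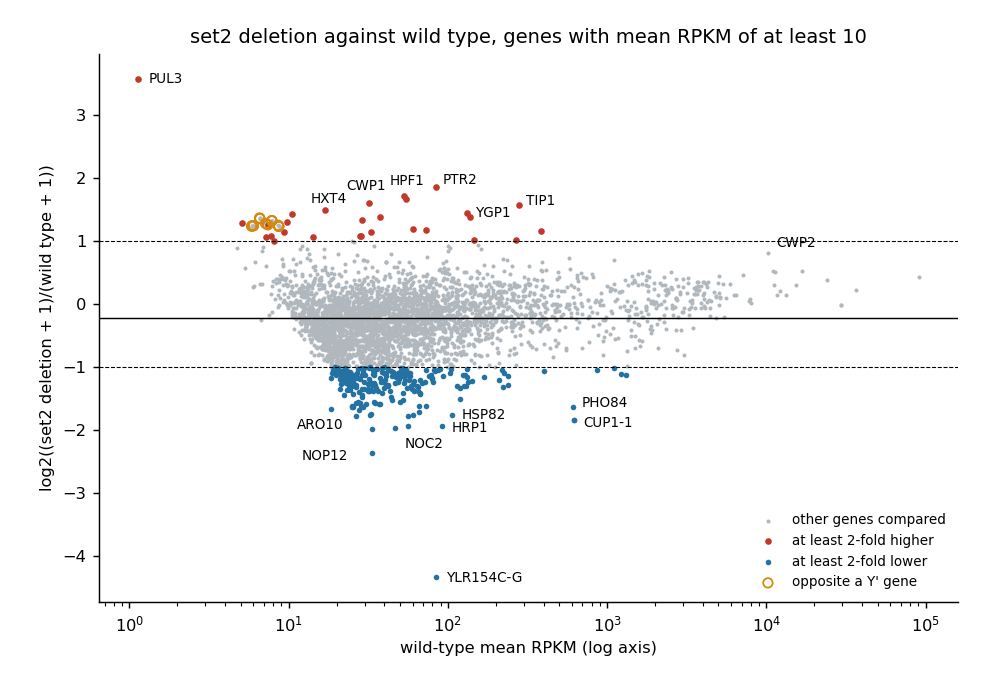
Log2 ratio of the set2 deletion to wild type (vertical axis, pseudocount 1) against wild-type mean RPKM (log axis) for the 3657 genes compared. Each point is a gene, dashed lines mark 2-fold, the solid line marks the median of -0.23, and open rings mark frames on the strand opposite a subtelomeric Y' gene. Of the 235 genes at least 2-fold lower, 206 had less than 100 RPKM in wild type. Most compared protein-coding genes were also under 100 RPKM, since their top quartile of wild-type level began at 93.5 RPKM.

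In the pathway of Set2 itself, the 3 Rpd3S genes with a row lay near the median gene. The 3 compared genes that read or remove the mark lay below it (list median -0.50). Of 6 genes listed for Set2 and Rpd3S, 3 had a row, and the others, SET2 included, could not be compared. Of Rpd3S, RPD3, the deacetylase, had 30.1 RPKM in the set2 deletion and 33.7 RPKM in wild type, SIN3, its scaffold, 38.4 and 49.2 RPKM in the same order, and UME1 9.57 and 13.1 RPKM. Their relative log2 values were 0.07, -0.12 and -0.19. Among proteins that read or remove the mark, the remodeler ISW1 had 16.0 RPKM in the set2 deletion and 31.0 RPKM in wild type, its partner IOC2 had 12.5 RPKM in the set2 deletion and 19.8 RPKM in wild type, and the demethylase RPH1 had 10.7 and 18.3 RPKM in the same order. PDP3 was below the minimum mean, and its 3.97 RPKM in the set2 deletion against 10.2 RPKM in wild type was the lowest ratio of the 8 readers and demethylases with a row (-0.95). None of the 6 genes compared in these lists was called, beside 1.26% of all genes called higher and 6.43% called lower.

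Genes with internal promoters that are known to fire in set2 mutants did not move together. PCA1, which encodes a cadmium exporter (chromosome II 792849 to 796499, sacCer3), had 30.1 RPKM in the set2 deletion against 10.6 RPKM in wild type, a relative log2 of 1.65 and among the 20 highest of all genes. STE11, a kinase of the pheromone pathway, had 12.7 RPKM in the set2 deletion and 9.54 RPKM in wild type (0.61). SPB4, a helicase of ribosome assembly, had 9.80 RPKM in the set2 deletion and 23.7 RPKM in wild type (-0.97), and AVO1, below the minimum mean, had 5.17 and 7.90 RPKM in the same order (-0.30). An RPKM covers the whole gene, and transcripts that start inside it cannot be told apart from full-length RNA here.

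Other transcription and chromatin genes were mostly near or below the median gene. Of 18 elongation factors and histone chaperones compared, 2 were at least 2-fold lower (11.1%, beside 6.43% of all genes) and 0 higher. Their median relative log2 was -0.36. DST1, the elongation factor TFIIS, had 13.7 RPKM in the set2 deletion and 34.9 RPKM in wild type, and SPN1, a partner of Spt6, had 8.31 and 21.4 RPKM. NHP6A, an HMG-box protein that works with the FACT chaperone, stood at the other end with 341 RPKM in the set2 deletion against 244 RPKM in wild type (0.70). SUS1 was the member of the SAGA coactivator that was called among 12 compared, with 8.66 RPKM in the set2 deletion and 19.4 RPKM in wild type. This was 8.33% of the list, beside 6.43% of all genes, and relative to the median gene 0 were called. The 6 histone genes with a row (of H2A, H2B, H2A.Z and H1) were all above the median gene, with HTB2 highest at 894 RPKM in the set2 deletion and 648 RPKM in wild type, and HTB1 lowest at 785 and 865 RPKM.

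Cell wall genes were frequent among the highest ratios. CWP1, HPF1 and TIP1, which encode mannoproteins of the outer wall, were among the 6 highest ratios of all genes, with relative log2 values of 1.95, 1.89 and 1.81. CWP1 (chromosome XI 261132 to 261851) had 177 RPKM in the set2 deletion against 52.9 RPKM in wild type. Its neighbour CWP2, one of the most abundant mRNAs of the cell, had 17917 RPKM in the set2 deletion against 10174 RPKM in wild type, the highest ratio among genes with at least 1000 RPKM in wild type (1.04). Over the list of mannoproteins, 5 of 20 members compared were at least 2-fold higher (25.0%, beside 1.26% of all genes) and 0 lower, 18 were above the median gene, and the median relative log2 was 0.67. The remaining members that were called were YGP1, a secreted glycoprotein (359 RPKM in the set2 deletion, 131 RPKM in wild type), and SPI1 (166 and 73.0 RPKM). The enzymes that build and remodel glucan and chitin had 14 of 16 members above the median gene with none called. GAS1, a glucan-elongating enzyme, had 2319 RPKM in the set2 deletion and 1652 RPKM in wild type, and CHS1, a chitin synthase, was lowest of them with 34.4 and 54.1 RPKM.

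Single transporter genes of several nutrients had high ratios, beside 1.26% of all compared genes that were called higher. PTR2, the importer of di- and tripeptides (chromosome XI 615730 to 617535), had 306 RPKM in the set2 deletion against 84.0 RPKM in wild type (2.08). It was the sole permease called among 17 for amino acids and peptides, of which 14 lay above the median gene. OPT2, an oligopeptide transporter below the minimum mean, had 8.61 RPKM in the set2 deletion and 2.80 RPKM in wild type. Of 14 genes for pyrimidines and nucleobases, 2 were called, the permeases FCY21 (49.8 RPKM in the set2 deletion, 17.0 RPKM in wild type) and FUI1, the uridine importer (60.6 and 28.1 RPKM). FUR4, the uracil importer, had 13.0 RPKM in the set2 deletion and 6.79 RPKM in wild type, whereas the synthesis enzymes URA1 (293 and 261 RPKM) and URA2 (169 and 188 RPKM) differed little. ZRT1, the high-affinity zinc importer and 1 of 4 zinc genes compared, had 99.1 RPKM in the set2 deletion and 37.5 RPKM in wild type (1.60), while the other zinc genes compared, ADH4, ZRT2 and ZRT3, were between 0.25 and 0.37. PUL3, a membrane transporter that passed the minimum mean through its values in the mutants, had the highest ratio of all, with 24.4 RPKM in the set2 deletion and 1.13 RPKM in wild type.

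The hexose transporters differed from gene to gene, and 2 of 6 compared were called higher, beside 1.26% of all genes. Their median relative log2 was 0.86. HXT4, a carrier repressed at high glucose, had 99.1 RPKM in the set2 deletion against 31.9 RPKM in wild type (1.83), and the high-affinity carriers HXT6 and HXT7, near-identical copies that may share reads, had 287 and 300 RPKM in the set2 deletion against 143 and 147 RPKM in wild type. HXT1 and HXT3, the low-affinity carriers used at high glucose, had 230 and 1245 RPKM in the set2 deletion against 289 and 1036 RPKM in wild type. HXT2 had 340 RPKM in the set2 deletion and 549 RPKM in wild type, the lowest ratio of the family (-0.46). Of 8 genes of glucose sensing and phosphorylation compared, 4 lay above the median gene, with the list median at -0.04 (0.04 above it after quantile normalization). The highest was HXK1, a hexokinase, with 48.3 RPKM in the set2 deletion and 29.2 RPKM in wild type (0.93). STD1, a regulator of glucose-dependent HXT repression, had 9.92 RPKM in the set2 deletion and 27.6 RPKM in wild type and was called, MIG1, a repressor active in glucose, had 10.1 and 20.8 RPKM, and MIG2, its relative, had a relative log2 of -0.44.

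Most stress and carbon storage genes lay above the median gene. Of 23 stress-induced genes compared, 20 did, with 13 above and 10 below wild type, and 4 were at least 2-fold higher (beside 1.26% of all genes), namely YGP1, SPI1, HOR7 (75.0 RPKM in the set2 deletion, 29.0 RPKM in wild type) and the membrane chaperone HSP12 (61.3 and 28.5 RPKM). The same list held the strongest opposite value, HSP82, an Hsp90 gene (chromosome XVI 96496 to 98625), with 30.7 RPKM in the set2 deletion against 106 RPKM in wild type (-1.54). All 14 trehalose and glycogen genes compared lay above the median gene (list median 0.50), with 9 above and 5 below wild type. GPH1, glycogen phosphorylase, was the member called, at 13.9 RPKM in the set2 deletion and 5.13 RPKM in wild type. It passed the minimum mean through its 59.6 RPKM in H3K36A, and with a pseudocount of 5 its log2 ratio was 0.90 and the call was lost. TSL1, of the trehalose synthase, had 28.8 RPKM in the set2 deletion and 16.7 RPKM in wild type. Glycolysis and fermentation genes had 17 of 18 members above the median gene and citrate cycle genes 19 of 20, with medians of 0.37 and 0.38 and none called, but after quantile normalization the glycolysis median was 0.05 below that of all genes (-0.01 against 0.04). All 4 subunits of succinate dehydrogenase were near the top of the citrate cycle list, such as SDH4 with 65.6 RPKM in the set2 deletion and 41.1 RPKM in wild type (0.89). COX5B, the cytochrome oxidase subunit used at low oxygen, was the member called among 32 respiratory genes, with 30.8 RPKM in the set2 deletion and 14.2 RPKM in wild type. Among activators, HAP4, of respiratory genes, had 19.9 RPKM in the set2 deletion and 44.7 RPKM in wild type, and TYE7, of glycolytic genes, 25.4 and 64.9 RPKM (2 genes picked after their values were seen).

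**Figure D2:**
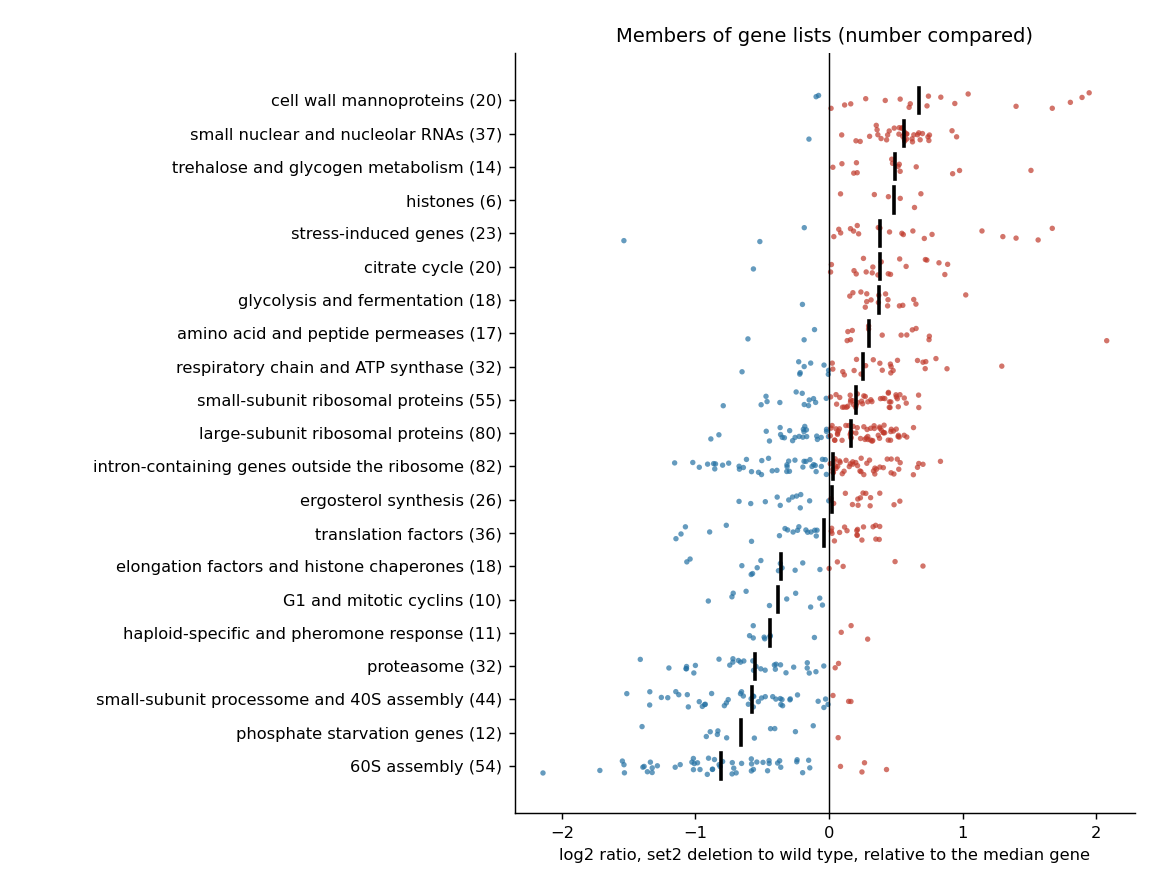
Relative log2 ratio of the set2 deletion to wild type for each compared member of 21 gene lists (points, shifted vertically at random for display), with list medians as black bars and the number compared in parentheses. Points right of 0 are above the median gene. The medians run from 0.67 for cell wall mannoproteins to -0.81 for 60S assembly, and those of glycolysis, both ribosomal protein lists, intron-containing genes and ergosterol synthesis fall below the median gene after quantile normalization.

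Among the gene lists used, those of factors that assemble ribosomes held the most genes of the lower side. Of 54 genes of 60S assembly compared, 28 were at least 2-fold lower (51.9%, beside 6.43% of all genes compared) and 0 higher. Of the 54, 4 lay above the median gene, and the median relative log2 was -0.81. On the relative scale the count was 18. Over all 60 members with a row, compared or not, 33 were at least 2-fold lower, beside 11.4% of all 5326 genes. The small-subunit processome and 40S assembly list had 15 of 44 lower (34.1%, 9 on the relative scale) and 0 higher, with a median of -0.58, and 24 of 53 over all rows. Together these lists hold 98 of the 3657 genes compared (2.68%) and 43 of the 235 lower genes (18.3%).

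Within 60S assembly the low values reached early and late steps. NOP12, a nucleolar RNA-binding protein of pre-25S processing (chromosome XV 251267 to 252646), had 5.66 RPKM in the set2 deletion against 33.4 RPKM in wild type (-2.14). NOC2 and MAK21, which form an early nucleolar complex, had 13.9 and 17.1 RPKM in the set2 deletion against 56.2 and 60.2 RPKM in wild type. PUF6, EBP2, CIC1 and NOP7, all of nucleolar precursors, had relative log2 values of -1.55, -1.54, -1.39 and -1.38. NMD3, the export adaptor of the 60S subunit, had 56.2 RPKM in the set2 deletion and 134 RPKM in wild type (-1.02). The members above the median gene were TIF6, an anti-association factor (592 RPKM in the set2 deletion, 514 RPKM in wild type), NOG1 (364 and 354 RPKM), NIP7 (142 and 140 RPKM) and NUG1 (143 and 158 RPKM). These 4 were all above 100 RPKM, and among the low members named here other than NMD3 the highest wild-type level was the 72.5 RPKM of NOP7.

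The small-subunit factors repeated the pattern with smaller ratios. IMP3, part of the U3 particle, had 9.19 RPKM in the set2 deletion against 33.0 RPKM in wild type (-1.51). UTP9 and UTP8 of the complex that binds the nascent transcript had 8.83 and 24.2 RPKM in the set2 deletion against 28.2 and 56.8 RPKM in wild type, while UTP10 and UTP15 of the same complex had 98.5 and 87.3 RPKM in the set2 deletion against 118 and 103 RPKM in wild type. The snoRNP core proteins also divided: NOP56, CBF5 and NOP58 had 97.8, 60.1 and 98.5 RPKM in the set2 deletion against 238, 141 and 198 RPKM in wild type, whereas NOP1, GAR1, NOP10 and SNU13 were between 0.22 and 0.35 relative log2. NOP56 and NOP58 bind the same box C/D RNAs as NOP1, so on this scale partners of a single particle lay on different sides of the median gene. After quantile normalization the list median was 0.03 against 0.04 for all genes, so the side of members near it depends on scaling.

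Other machinery of growth held single genes that were called lower, beside 6.43% of all genes. RNA polymerase I, which makes rRNA, had 2 of 8 genes lower, RPA34 (17.7 RPKM in the set2 deletion, 52.6 RPKM in wild type) and RPA43 (22.8 and 60.9 RPKM), while its largest subunit RPA190 had 194 and 233 RPKM. RNA polymerase III had all 11 genes below the median gene, with RPC17 and RPC19 called (0 relative to the median gene), and RNA polymerase II had RPB5 called among 11 (24.6 RPKM in the set2 deletion, 60.3 RPKM in wild type). Of 36 translation factors 4 were lower (11.1%) and 0 higher, with a median of -0.04. They were GCD2, of the exchange factor eIF2B (11.5 RPKM in the set2 deletion, 31.3 RPKM in wild type), NIP1 and TIF35, of eIF3 (46.5 and 52.3 RPKM in the set2 deletion, 119 and 130 RPKM in wild type), and TIF4632, an eIF4G gene (10.8 and 24.6 RPKM).

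Proteasome genes lay low as a group. Of 32 compared, 8 were at least 2-fold lower (25.0%, beside 6.43% of all genes, and 7 relative to the median gene) and 0 higher, 2 were above the median gene, and the median was -0.56. The lid subunits RPN8, RPN12, RPN11 and RPN9 were among the 8, with RPN8 at 8.78 RPKM in the set2 deletion and 29.5 RPKM in wild type (-1.41) and RPN12 at 24.1 and 66.4 RPKM (-1.20). The others were RPT2 and RPT4, ATPases of the base, and PRE6 and PUP2, of the core particle. RPN4, the transcription factor that activates proteasome genes, had 11.6 RPKM in the set2 deletion and 23.7 RPKM in wild type (-0.74). Hsp90 and its co-chaperones, a list made after HSP82 had been seen, had 3 of 9 lower (beside 6.43% of all genes, and 1 relative to the median gene), HSP82, CPR6 (58.2 RPKM in the set2 deletion, 131 RPKM in wild type) and SIS1 (24.8 and 50.9 RPKM). HSC82, the constitutive Hsp90 gene, had 539 RPKM in the set2 deletion and 942 RPKM in wild type (-0.58). Nuclear pore genes, likewise listed after values had been seen, had 5 of 29 lower (17.2%, beside 6.43%, and 2 relative to the median gene), led by NIC96 (12.4 and 31.3 RPKM) and NUP82 (9.19 and 23.0 RPKM), and 24 below the median gene.

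Genes of phosphate scavenging, a regulon switched on when phosphate runs low, had 5 of 12 members lower (beside 6.43% of all genes) and 0 higher, with a median of -0.66, and relative to the median gene PHO84 alone stayed beyond 2-fold. The inhibitor of the phosphate-sensing cyclin kinase, PHO81, belonged to the 5 with 9.52 RPKM in the set2 deletion and 20.9 RPKM in wild type. PHO4, the activator of the regulon, had 24.7 RPKM in the set2 deletion and 41.9 RPKM in wild type, PHO5, the repressible acid phosphatase, 33.5 and 37.4 RPKM, and the low-affinity importers PHO90 and PHO91 had relative log2 values of 0.27 and 0.09. Metals differed by gene. The metallothionein genes CUP1-1 and CUP1-2, with equal values of 173 RPKM in the set2 deletion and 624 RPKM in wild type, lie in a tandem repeat with YHR054C (11.2 and 46.5 RPKM), and the gene beside the repeat, RSC30, was also called (relative log2 -1.02). How many copies of the repeat each strain carries was not measured. Their activator CUP2 had 21.4 RPKM in the set2 deletion and 28.2 RPKM in wild type (-0.15), and none of 11 iron genes was called.

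Amino acid genes were low for some pathways. All 6 arginine genes compared lay below the median gene (median -0.39), with ARG1 at 15.4 RPKM in the set2 deletion and 30.4 RPKM in wild type. So did 7 of 8 lysine genes (median -0.35). At least 2-fold lower were 0 of the arginine genes and 1 of the lysine genes (12.5%, beside 6.43% of all genes). Other amino acid synthesis had 1 of 36 genes lower (2.78%) and a median of -0.02, with 17 above the median gene. LYS14, the activator of the lysine pathway, had 10.8 RPKM in the set2 deletion and 22.1 RPKM in wild type. GCN4, the general activator of amino acid synthesis, had 622 RPKM in the set2 deletion and 877 RPKM in wild type (-0.27). GLN1, glutamine synthetase, was the member called among 12 genes of nitrogen catabolite repression compared (8.33%, and 0 relative to the median gene). It had 90.4 RPKM in the set2 deletion and 209 RPKM in wild type, and GDH1, glutamate dehydrogenase, had 256 and 456 RPKM. ARO10 and ARO9, which break down aromatic amino acids under the same activator, had 7.73 and 43.9 RPKM in the set2 deletion against 33.6 and 87.2 RPKM in wild type. ARO10 was called (-1.76), as 1 of 4 genes compared for this breakdown. BAT2, a transaminase of the same breakdown route, had 133 RPKM in the set2 deletion and 89.5 RPKM in wild type.

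**Figure D3:**
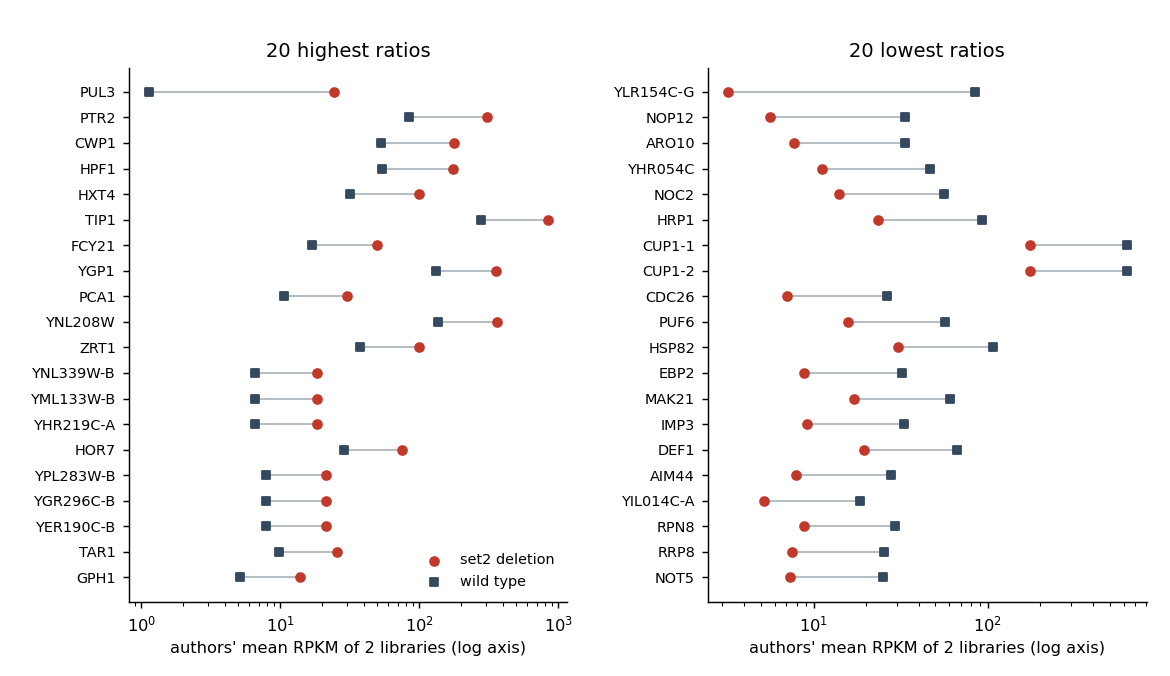
Authors' mean RPKM (log axis) in the set2 deletion (circles) and wild type (squares) for the 20 highest and the 20 lowest ratios among compared genes, each line joining the genotypes of a gene. Wild-type values of the highest genes range from 1.13 RPKM for PUL3 to 279 RPKM for TIP1.

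Splicing factors, the subject of the series, held no called gene among those compared outside the Sm and Lsm proteins. None of the genes compared for U1 (3), the branch site and U2 (6), the tri-snRNP (7) or the Prp19 complex and catalytic steps (9) was beyond 2-fold, and the list medians were -0.26, -0.12, -0.17 and -0.10, the last of them 0.07 above the median gene after quantile normalization. PRP45, of the Prp19-associated complex, had 18.1 RPKM in the set2 deletion and 22.0 RPKM in wild type, and PRP8, the core of the spliceosome, had 28.1 and 37.5 RPKM. Most members fell under the minimum mean, and over all rows 3 of 10 U1 genes, 4 of 16, 2 of 12 and 2 of 25 of the other lists, in that order, were at least 2-fold lower, beside 11.4% of all 5326 genes, and 0 higher. PRP39 of U1, for example, had 5.32 RPKM in the set2 deletion and 13.1 RPKM in wild type, and SNU66 of the tri-snRNP had 1.88 and 7.15 RPKM. Among Sm and Lsm proteins, which ring the spliceosomal RNAs and decaying mRNAs, LSM7 (12.3 RPKM in the set2 deletion, 33.7 RPKM in wild type) and LSM2 (28.5 and 69.0 RPKM) were called out of 11.

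Genes that contain introns lay close to the median gene as a class at the level of total RNA. Of 82 intron-containing genes outside the ribosome, 8 were at least 2-fold lower (9.76%, beside 6.43% of all genes) and 0 higher. Relative to the median gene, 2 were at least 2-fold lower, beside 2.9% of all genes. Of the 82, 44 lay above the median gene, and the median relative log2 was 0.03 (-0.08 after quantile normalization). The 8 included LSM7, LSM2, SUS1, UBC4, a ubiquitin-conjugating enzyme (109 RPKM in the set2 deletion, 240 RPKM in wild type), and GLC7, a protein phosphatase (26.8 and 58.1 RPKM). RPKM does not separate spliced from unspliced RNA, so splicing itself was not measured. Of 3' end processing genes, HRP1, a cleavage factor (chromosome XV 87844 to 89448), had 23.4 RPKM in the set2 deletion and 92.5 RPKM in wild type (-1.72), its partner RNA14 had 9.48 and 21.9 RPKM, and the other 12 compared were not called. Cap-binding and export factors had 0 of 11 called.

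Ribosomal protein genes stood slightly above the median gene on the authors' scale and below it after quantile normalization. Of 80 large-subunit ribosomal protein genes, 56 were above it (median 0.16), and of 55 for the small subunit 42 were (median 0.20), while quantile normalization put both list medians 0.11 below the median gene. Against wild type itself the medians were -0.06 and -0.02. GPP1, a glycerol phosphatase, was lowest among genes of at least 1000 RPKM in wild type, with 603 RPKM in the set2 deletion and 1323 RPKM in wild type. The ribosomal protein genes called were RPL39 (563 RPKM in the set2 deletion, 1216 RPKM in wild type), RPL38 (417 and 865 RPKM) and RPS30A (542 and 1097 RPKM). They were 2.5% of the large-subunit and 1.82% of the small-subunit genes, beside 6.43% of all genes. Relative to the median gene, 0 were called lower in either list. Of 37 small nuclear and nucleolar RNAs compared, 36 were above the median gene, none was called, and the list median was 0.56. The short noncoding SNR13 led them with 960 RPKM in the set2 deletion and 578 RPKM in wild type.

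Cell cycle and mating genes gave few calls. All 10 cyclin and regulator genes compared lay below the median gene (list median -0.38), and CLB2, a mitotic cyclin, was called (9.31 RPKM in the set2 deletion, 21.5 RPKM in wild type). Of 10 genes of daughter cells, DSE2, an enzyme of cell separation, was higher (547 RPKM in the set2 deletion, 270 RPKM in wild type) and ASH1, a repressor of mating-type switching, lower (35.6 and 78.7 RPKM). In bulk RNA, fewer cells in a stage and less RNA per cell cannot be told apart. CDC26, a subunit of the anaphase-promoting complex, was among the 20 lowest with 7.05 RPKM in the set2 deletion and 26.5 RPKM in wild type. STE6, the a-factor exporter, was called (26.1 and 55.0 RPKM), while BAR1 (71.7 and 84.6 RPKM), AGA2 (90.8 and 102 RPKM) and MFA2 (125 and 73.9 RPKM) were not. The alpha-specific SAG1 had 12.3 RPKM in the set2 deletion and 12.5 RPKM in wild type, and 11 haploid and pheromone genes had a median of -0.44 with 0 called.

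A set of frames at chromosome ends accounted for much of the higher side. Y' elements are repeats next to telomeres that carry helicase genes such as YRF1-1 to YRF1-8, and the table also lists 22 open reading frames named for the strand opposite these genes. All 22 were at least 2-fold higher, beside 1.07% of all 5326 genes, and 18 of them were among the 46 higher genes, the other 4 being under the minimum mean. Their median was 18.5 RPKM in the set2 deletion (6.18 to 21.9) and 6.59 RPKM in wild type (2.17 to 8.67), and the ratio of the set2 deletion to wild type ran from 2.36 to 2.85. No wild-type value reached 10 RPKM, so the 18 passed the minimum mean through their values in the mutants, the set2 deletion included. The 17 Y' genes on the coding strand had a median of 132 RPKM in the set2 deletion (50.1 to 152) and 137 RPKM in wild type (54.4 to 155), with log2 ratios between -0.12 and 0.01 and 0 called. YER190C-B (chromosome V 575680 to 576162), for example, had 21.2 RPKM in the set2 deletion and 7.85 RPKM in wild type, inside YRF1-2 (571480 to 576525), which had 137 RPKM in both. The strands of this locus thus carried different values. Neither the labels nor the headers say how strand was used or how reads matching several copies were counted. The 22 rows hold 14 distinct sets of values, since copies are near-identical, and are not independent. These rows were singled out after their values had been seen.

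**Figure D4:**
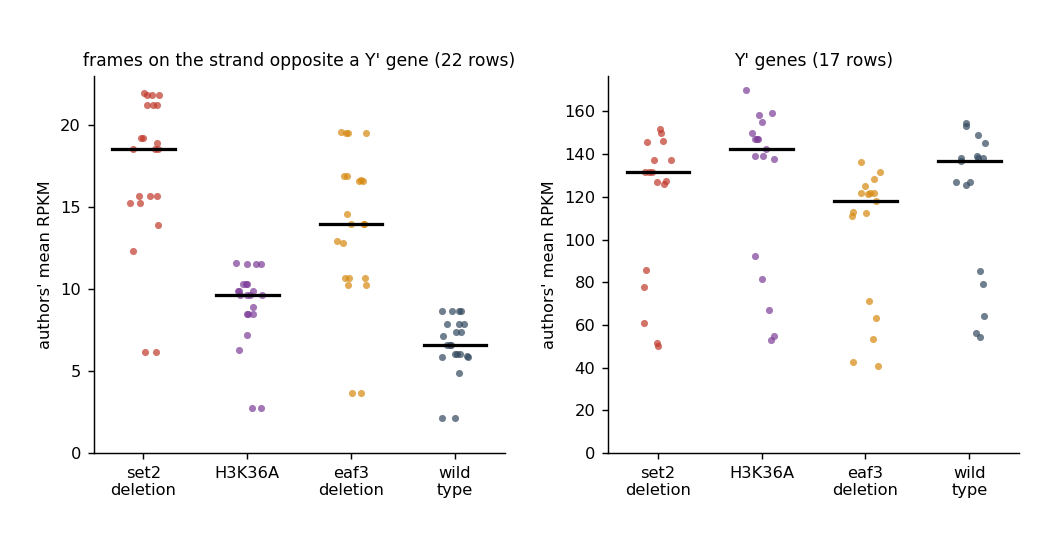
Authors' mean RPKM of 22 frames on the strand opposite a Y' gene (left) and of 17 Y' genes (right) in (left to right) set2 deletion, H3K36A, eaf3 deletion and wild-type cells, each on its own axis from 0, with medians as black bars. For the opposite frames the medians are 18.5, 9.63, 13.97 and 6.59 RPKM in that order, and for the Y' genes 132, 142, 118 and 137 RPKM.

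Rows in the rDNA lay on both sides. YLR154C-G (chromosome XII 462522 to 462671) had the lowest ratio of all with 3.23 RPKM in the set2 deletion and 83.9 RPKM in wild type, while TAR1, a frame on the strand opposite the 25S rRNA gene, had 25.6 and 9.78 RPKM. Libraries were depleted of rRNA, and the part of residual rRNA reads in these rows was not tested.

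Position along the chromosomes went with small differences, here with the 17 Y' genes counted among those near the ends. Chromosome medians ran from -0.06 on XV to 0.10 on III, and 100 genes within 20 kb of the outermost gene of a chromosome end had a median relative log2 of 0.16 against -0.01 for the other 3500. Of the 20 highest genes 13 had an adjacent gene with a row, and of these 19 neighbours 0 were at least 2-fold higher and 1 lower (NRG2 beside TIP1, 2.87 RPKM in the set2 deletion and 10.4 RPKM in wild type). Of the 20 lowest 19 had one, and of 31 neighbours 5 were lower (16.1%, beside 11.4% of all 5326 genes) and 0 higher, with a median of -0.07. The repeat of CUP1-1 and YHR054C with RSC30 beside it gave 3 of those 5. Among adjacent gene pairs, Spearman's rho of the ratios was -0.06 over 529 convergent, 0.11 over 565 divergent and 0.07 over 1101 tandem pairs, a description across genes that share libraries.

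Gene length went with the ratio. From the shortest quartile of protein-coding genes to the longest, the median relative log2 was 0.11, 0.05, -0.03 and -0.12, and 57, 40, 59 and 78 genes were at least 2-fold lower. The order held within each quartile of wild-type level, where the longest genes had medians of -0.11, -0.26, -0.16 and 0.03 from the lowest level to the highest and the shortest 0.01, -0.03, 0.12 and 0.21. At the second level quartile, 15.4% of the longest genes and 11.6% of the shortest were at least 2-fold lower. In the top level quartile, which holds highly expressed genes such as CWP2, these shares were 2.17% and 4.27%. The cause was not tested.

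**Figure D5:**
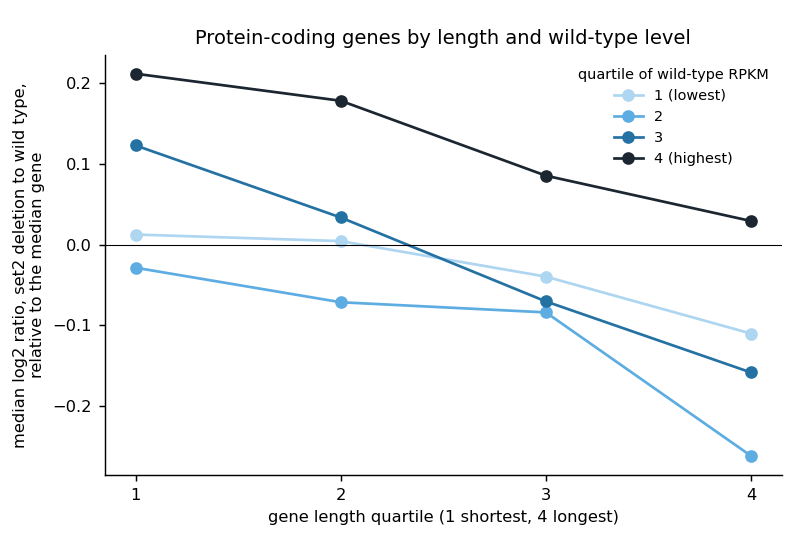
Median relative log2 ratio of the set2 deletion to wild type for protein-coding genes by quartile of gene length (horizontal axis), with a line for each quartile of wild-type RPKM. All 4 lines run downwards from the shortest to the longest genes, to -0.26 at the second level quartile.

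The leading genes are given here beside the other mutants, whose ratios use the same wild-type values. PTR2 had 306 RPKM in the set2 deletion, 370 RPKM in H3K36A, 287 RPKM with eaf3 deleted and 84.0 RPKM in wild type. PCA1 had 30.1, 25.9 and 23.9 RPKM in the mutants in the same order and 10.6 RPKM in wild type, and FCY21 49.8, 42.2 and 53.5 RPKM against 17.0 RPKM. These 3 genes thus had values in all mutants well above wild type, at like levels. ZRT1 was highest in the set2 deletion with 99.1 RPKM, followed by 71.2 RPKM in the eaf3 deletion and 68.6 RPKM in H3K36A. HSP82 had 30.7 RPKM in the set2 deletion and 32.1 RPKM in the eaf3 deletion, with 73.9 RPKM in H3K36A and 106 RPKM in wild type. RPN8 had 8.78, 11.0 and 8.44 RPKM in the mutants in that order and 29.5 RPKM in wild type. NOC2 was lower still in H3K36A, with 5.90 RPKM beside 13.9 RPKM in the set2 deletion and 10.2 RPKM in the eaf3 deletion. GPH1 was higher in H3K36A, with 59.6 RPKM beside 13.9 RPKM in the set2 deletion and 19.8 RPKM in the eaf3 deletion, against 5.13 RPKM in wild type. Differences between the mutants were not tested.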

How the data were processed

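Stranded libraries of rRNA-depleted total RNA were sequenced, 2 for each of 4 genotypes. Per the submitters' processing notes, CASAVA and TopHat2 2.0.14 were used with the build sacCer3. Gene models, use of strand and the tool behind RPKM were not given in the sources used here. Per the file headers, the authors deposited RPKM averaged per genotype. No library has a column of its own, so no test, error or depth could be given. Of 5328 rows, 2 named R were left out, and another 3 lines had been emptied for this work. Every listed value is above 1 RPKM (lowest 1.00), so genes under that in any genotype have no row. Near-identical copies can share reads, and 28 rows repeat all values of another row. Names and coordinates came from the RefSeq table of R64, the same build as sacCer3, for 5176 rows, and 150 kept their systematic name.

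Log2 ratios used a pseudocount of 1, which lowers the ratios of weak genes, and a mean of at least 10 RPKM over 4 genotypes. Python 3.11.15 with pandas 2.3.3 was used, and the calculation was tested on simulated data. The rule for naming genes covered the 20 highest and 20 lowest ratios and all members of the short pathway and mating-type lists. It also covered up to 6 called members of every other list, or else up to 2 with the largest ratios. The rest were 5 in each direction among genes of at least 1000 RPKM in wild type, and neighbours. Not every gene under this rule is given in the text. Further genes are named to show the range of a list or the level of its regulators, chosen after their values were seen. The 69 written lists come from textbook knowledge, introns included. Together with the ribosomal protein and small RNA groups taken from gene names, they hold 105 of the 235 lower and 18 of the 46 higher genes. Groups, members and lists were chosen with earlier results of these data known. The design planned a motif search in promoters, which was not run because no promoter sequence was used here. The immunoprecipitation libraries were not analysed here. Alternatives changed the pseudocount, filter, scaling, rows and limit.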

Additional observations from a re-analysis of the deposited data

How the results depend on the processing

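The counts of 46 higher and 235 lower genes depended on filter and scale. A pseudocount of 5 gave 25 and 138, a wild-type RPKM of at least 10 gave 20 and 431, and a limit of 1.5-fold gave 108 and 787. A mean of at least 1 RPKM gave 606 lower genes, centring on the median gene gave 106 lower, and quantile normalization gave 79 higher and 66 lower. Without the rows that the reference does not name, 28 genes were higher, as they were after leaving out the rows opposite to Y' genes, and 10 RPKM or more in both genotypes gave 20 higher (both chosen after seeing the data). The cause was not tested, except that the lower minimum adds 1669 genes and that left-out rows drop genes by construction. A pseudocount of 0.1, a mean over the 2 genotypes compared, removal of small RNA genes and removal of repeated rows moved either count by less than 1.5 times. Among the 50 genes recomputed, none that was called changed sign under an alternative that kept it, while centring puts genes such as HTB1 and NUG1 above the median gene though they are below wild type. Of 522 recomputed values of named genes 519 moved by less than 1.5-fold, the others being PUL3 (log2 4.32 with a pseudocount of 0.1 and 2.26 with 5) and YLR154C-G (-3.43 with 5). No paired analysis was possible because the deposited values are averages without replicate numbers, and for the same reason no replicate could be left out. Depth is unknown, so the counting error of genes near 10 RPKM cannot be given.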

Other observations

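Some gene groups outside the comparisons above had no compared member beyond 2-fold. Of all genes compared, 1.26% were at least 2-fold higher and 6.43% lower, so 0 calls in groups of 10 or 17 genes lie near these shares. Ergosterol synthesis had 0 of 26 called and a median relative log2 of 0.03 (-0.05 after quantile normalization), with HMG2, a reductase of the pathway, at 42.2 RPKM in the set2 deletion and 34.0 RPKM in wild type and IDI1, an isomerase, at 45.7 and 86.1 RPKM. Fatty acid synthesis had 0 of 10 called, 8 above the median gene and a median of 0.28, with OLE1, the desaturase, at 1114 RPKM in the set2 deletion and 801 RPKM in wild type. DNA replication genes had 0 of 17 called and a median of -0.06. Mitochondrial ribosomal protein genes had 0 of 51 called among those compared. Over all rows, 4 of 63 were at least 2-fold lower, beside 11.4% of all 5326 genes.

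Of 16 antioxidant genes compared, 12 lay above the median gene and 4 below it, with a median relative log2 of 0.36. At least 2-fold lower values were seen for 2 of them (12.5%, beside 6.43% of all genes) and higher values for 0. Relative to the median gene, 0 were beyond 2-fold. SOD2, the mitochondrial superoxide dismutase, had 260 RPKM in the set2 deletion and 168 RPKM in wild type, and TRX1, a thioredoxin, had 496 and 325 RPKM. YAP1, the activator of the oxidative stress response, was called with 15.9 RPKM in the set2 deletion and 37.3 RPKM in wild type, as was the peroxidase gene GPX2 with a relative log2 of -0.83.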
